A study of Mus musculus with 6 samples.

Results

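The genes Cd79a, Cd79b, Ms4a1, Cd22, Cr2, Blnk, Bank1, Pax5 and Pou2af1, which mark B cells or build and regulate their antigen receptor, were followed in mouse lung. They were chosen by name, as the probes that the array files assign to these symbols, and the probe with the brightest mean processed signal stood for each gene. All 9 genes were found, with 15 probes in all, out of 20246 genes that could be tested. The lungs came from untreated male mice aged 8 weeks, 3 lacking Nogo-A and Nogo-B (knockout lungs 1, 11 and 12) and 3 wild type (lungs 11, 12 and 13). Both proteins are products of Rtn4, a reticulon gene. How the deletion was made and the strain are not given in the sources used here, and the study's title places the comparison in asthma research. Total RNA of each lung was labelled with Cy3 and hybridised to its own array of 60-base probes. Each group's lungs are described as separate biological replicates.

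Values below are log2 signals relative to each array's 75th percentile, so 0 is the brightness at that percentile, and differences are knockout minus wild type on this log2 scale. The share of probes well above background ran from 68.9% (wild type 11) to 78.0% (knockout 1). The 10 lung markers examined were all measured. The arrays were scanned on 2 days. Day 1 held knockout 1, knockout 11 and wild type 13, and day 2 held knockout 12, wild type 11 and wild type 12. The 3 arrays of day 2 also shared a slide, so day and slide cannot be told apart there. Arrays of 1 day correlated at 0.972 to 0.994 over genes, and arrays of different days at 0.950 to 0.965. Precision is limited by the 6 arrays.

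The targeted gene was checked first. The Rtn4 probe for the transcript AK047982 (mm7, chr11:29649392-29649451) read -8.03, -8.46 and -8.29 in knockout lungs 1, 11 and 12, against -3.03, -2.89 and -2.27 in wild-type lungs 11, 12 and 13. It was not well above background in any knockout lung and was at least 14.3-fold lower there, with an adjusted p of 0.01638 in limma over 30505 single probes, of which 2 (0.00656%) passed. The brightest Rtn4 probe read 1.1, -0.71 and -1.79 in the knockout lungs and 1.69, 1.62 and 2.36 in the wild-type lungs. The knockout lungs were thus spread widely on it. Its difference was -2.36 (SE 0.72) and did not pass (adjusted p = 0.9999 in limma over single probes). Another Rtn4 probe differed by -2.29 (SE 0.76, adjusted p = 0.9999 in the same test). With the brightest probe standing for each gene, the targeted gene itself was therefore not called. Failing to pass below does not exclude a difference.

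B cells sense antigen through a membrane immunoglobulin that has almost no tail of its own. It signals through the paired chains Cd79a and Cd79b, also called Ig-alpha and Ig-beta, whose tails are phosphorylated by Src-family kinases and recruit Syk. The adaptor Blnk then links Syk to phospholipase C and Btk, while Cd22 dampens the signal and Cr2 strengthens it for complement-coated antigen. Pax5 and the coactivator Pou2af1 act in the nucleus to hold B cell identity and to drive immunoglobulin genes. The lung holds B cells in its blood vessels and tissue, and in lymphoid aggregates along the airways, so whole-lung RNA carries their transcripts.

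The probes decide which part of a transcript was read, and 4 of the 15 lay over a longer stretch of genome than their 60 bases, as a probe across a splice junction does. These 4 probes and the brightest Cd22 probe are shown because several results below turn on which probe of a gene was used. They are printed 5′ to 3′ from the array files, without capitals, since no part is singled out, with the positions the files give on mm7. The only Cd79a probe lies at chr7:21688822-21689079 on the plus strand. The 2 Cd22 probes lie on the minus strand at chr7:27806351-27806410 (the brighter) and chr7:27815904-27817228. The Bank1 probe shown (chr3:135898251-136008078) and the Pax5 probe shown (chr4:44551296-44583850), both on the minus strand, were not the brightest of their genes.
Cd79a: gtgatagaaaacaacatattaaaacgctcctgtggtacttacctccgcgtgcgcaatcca
Cd22, brighter: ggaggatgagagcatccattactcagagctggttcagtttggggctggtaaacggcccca
Cd22, dimmer: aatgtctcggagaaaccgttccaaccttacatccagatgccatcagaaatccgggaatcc
Bank1, dimmer: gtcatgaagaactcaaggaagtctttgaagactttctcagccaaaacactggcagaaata
Pax5, dimmer: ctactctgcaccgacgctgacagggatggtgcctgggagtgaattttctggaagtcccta

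All 9 genes had a higher mean in the knockout lungs, by log2 differences of 0.20 (Cd79b) to 1.14 (Pax5), while 52.2% of all genes tested were higher. The Pax5 value came from a probe that the array does not assign to the Pax5 mRNA. None of the 9 passed the adjusted threshold of 0.05 in limma, and 0% of the 20246 genes did. At an unadjusted p under 0.05 there were 0 of the 9 and 191 of all genes (0.943%). The adjusted p was 0.9998 for each of the 9. Their median difference was 0.46, against 0.01 over all genes tested. A block for scan day gave a median of 0.29, against 0.02 over all genes. Day 1 alone gave 0.15, against -0.04, and day 2 alone gave 0.54, against 0.08. Without knockout 1 the median was 0.25, with 8 of 9 higher, and without wild type 11 it was 0.30. Since no gene of the 9 passed, a rise in the knockout is not established. In whole-lung RNA the number of B cells, transcripts per B cell and transcripts of other cells cannot be told apart.

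**Figure D1:**
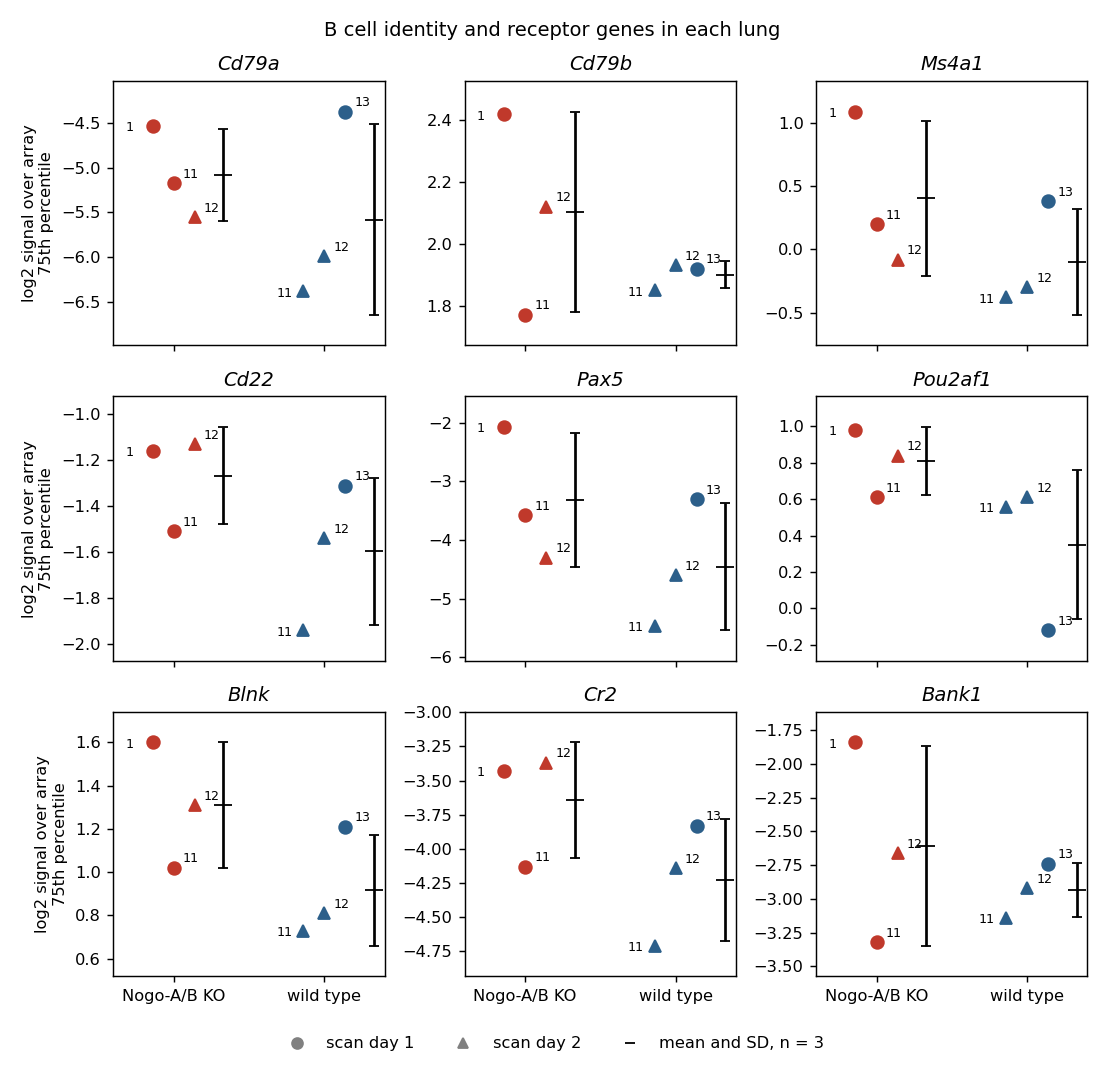
Log2 signal of each of the 9 genes relative to the 75th percentile of its array, for 3 Nogo-A/B knockout (red, left) and 3 wild-type lungs (blue, right), numbered as in the text; circles are scan day 1, triangles scan day 2, and bars show mean and SD. Knockout 1 is the highest lung for 6 genes and wild type 11 the lowest for 6.

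Neither signalling chain of the receptor differed beyond the spread between lungs. Cd79a read -4.53, -5.17 and -5.55 in knockout lungs 1, 11 and 12, against -6.38, -5.99 and -4.37 in wild-type lungs 11, 12 and 13. The highest Cd79a value was thus in a wild-type lung, and both day 1 lungs with the strongest signals, knockout 1 and wild type 13, shared a slide. Its difference was 0.50 (SE 0.57, 95% interval -0.88 to 1.88, unadjusted p = 0.413 in limma). The block for scan day gave 0.08. The single comparisons inside each day gave -0.48 on day 1 and 0.64 on day 2. Without wild type 11 the Cd79a difference was 0.10, and without wild type 13 it was 1.1. This probe was dim, and well above background in 3 of 3 knockout and 2 of 3 wild-type lungs.

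Cd79b, read by a single probe at chr11:106420507-106420566, was measured more tightly. It was 2.42, 1.77 and 2.12 in knockout lungs 1, 11 and 12, against 1.85, 1.93 and 1.92 in wild-type lungs 11, 12 and 13. The wild-type lungs lay close together (SD 0.046), and the knockout lungs fell on both sides of them (SD 0.327). The difference was 0.20 (SE 0.21, interval -0.30 to 0.71), or 1.15-fold, and 0.18 within day 1 and 0.23 within day 2. It was 0.05 without knockout 1 and 0.37 without knockout 11.

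Among surface proteins, Ms4a1 encodes CD20, the membrane protein of mature B cells that therapeutic antibodies bind. It read 1.09, 0.20 and -0.08 in knockout lungs 1, 11 and 12, against -0.38, -0.30 and 0.38 in wild-type lungs 11, 12 and 13. The groups overlapped, since wild type 13 exceeded 2 of the knockout lungs. The difference was 0.51 (SE 0.37, interval -0.40 to 1.41), and 0.27 with scan day as a block. It was 0.16 without knockout 1, and 0.75 without knockout 12 or without wild type 13. A second Ms4a1 probe, 460 bases further from the 3′ end, differed by 0.37 (SE 0.31).

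Cd22, a sialic acid-binding receptor with inhibitory tyrosine motifs, read -1.16, -1.51 and -1.13 in knockout lungs 1, 11 and 12, against -1.94, -1.54 and -1.31 in wild-type lungs 11, 12 and 13. It was higher in the knockout lung in 8 of the 9 possible pairs of a knockout with a wild-type lung. Its difference was 0.33 (SE 0.23, interval -0.23 to 0.88), with -0.03 on day 1 alone and 0.61 on day 2 alone. Without wild type 11 it was 0.16. The dimmer Cd22 probe gave 0.24 (SE 0.24).

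Cr2 encodes the complement receptors CD21 and CD35 of mouse B cells and follicular dendritic cells. Its signal was -3.43, -4.13 and -3.37 in knockout lungs 1, 11 and 12, against -4.71, -4.14 and -3.83 in wild-type lungs 11, 12 and 13. Knockout 11 lay among the wild-type lungs and the other two knockout lungs lay above them. The difference was 0.58 (SE 0.32, interval -0.20 to 1.36, unadjusted p = 0.117 in limma). Within day 1 it was 0.05 and within day 2 it was 1.05. It was 0.34 without wild type 11 and 0.35 with normexp background correction, whose added offset of 50 shrinks differences of dim probes. The genotype by scan day interaction did not pass (adjusted p = 0.531 in limma), nor did it for any of the 9 genes or for any gene tested (0%, with 11.5% at an unadjusted p under 0.05).

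The adaptors follow. Blnk, the B cell linker, read 1.60, 1.02 and 1.31 in knockout lungs 1, 11 and 12, against 0.73, 0.81 and 1.21 in wild-type lungs 11, 12 and 13. Only wild type 13 reached into the knockout range. The Blnk difference was 0.39 (SE 0.23, interval -0.17 to 0.95), and 0.32 with the block. It was 0.25 without knockout 1.

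Bank1, a scaffold with ankyrin repeats that joins Lyn to the calcium response, read -1.84, -3.32 and -2.66 in knockout lungs 1, 11 and 12, against -3.14, -2.92 and -2.74 in wild-type lungs 11, 12 and 13. The knockout lungs held both the highest and the lowest Bank1 value, and the wild-type lungs lay between them. The difference of 0.33 (SE 0.38, interval -0.61 to 1.26) was -0.06 without knockout 1 and 0.68 without knockout 11. A dimmer Bank1 probe, well above background in 2 of 3 knockout and 1 of 3 wild-type lungs, gave 0.90 (SE 0.73), and the remaining Bank1 probe was not well above background in any lung.

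Pax5, the factor that commits precursors to the B lineage, had the widest difference and also the widest spread. It read -2.07, -3.58 and -4.30 in knockout lungs 1, 11 and 12, against -5.46, -4.60 and -3.30 in wild-type lungs 11, 12 and 13. Within each group the lungs ranged over more than 2 on the log2 scale, and the groups overlapped. The difference was 1.14 (SE 0.75, interval -0.68 to 2.95), or 2.20-fold, and 0.60 with scan day as a block. It was 0.51 without knockout 1, 0.63 without wild type 11 and 1.71 without wild type 13. With normexp background correction, which adds the same offset of 50, it was 0.67. This brightest Pax5 probe (chr4:44538878-44538937) is assigned to the RIKEN cDNA clone AK040987, which the array describes as unclassifiable, and not to the Pax5 mRNA. The probe of the Pax5 mRNA printed above was well above background in 1 of 3 knockout and 1 of 3 wild-type lungs and was not tested. It read -6.0, -8.3 and -6.53 in knockout lungs 1, 11 and 12, against -7.03, -7.57 and -6.11 in wild-type lungs 11, 12 and 13. The groups thus overlapped on it.

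Pou2af1, the octamer coactivator also called OBF-1, was the one gene of the 9 whose groups did not overlap, where 4% of all genes tested had groups apart. It read 0.98, 0.61 and 0.84 in knockout lungs 1, 11 and 12, against 0.56, 0.61 and -0.12 in wild-type lungs 11, 12 and 13. The gap between knockout 11 and wild type 12 was only 0.0054. The difference was 0.46 (SE 0.25, interval -0.15 to 1.07, unadjusted p = 0.117 in limma). The block for scan day gave 0.58 (unadjusted p = 0.040, adjusted p = 0.9995 in limma). Day 1 alone gave 0.91 and day 2 alone gave 0.25. Without wild type 13 the difference was 0.22.

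**Figure D2:**
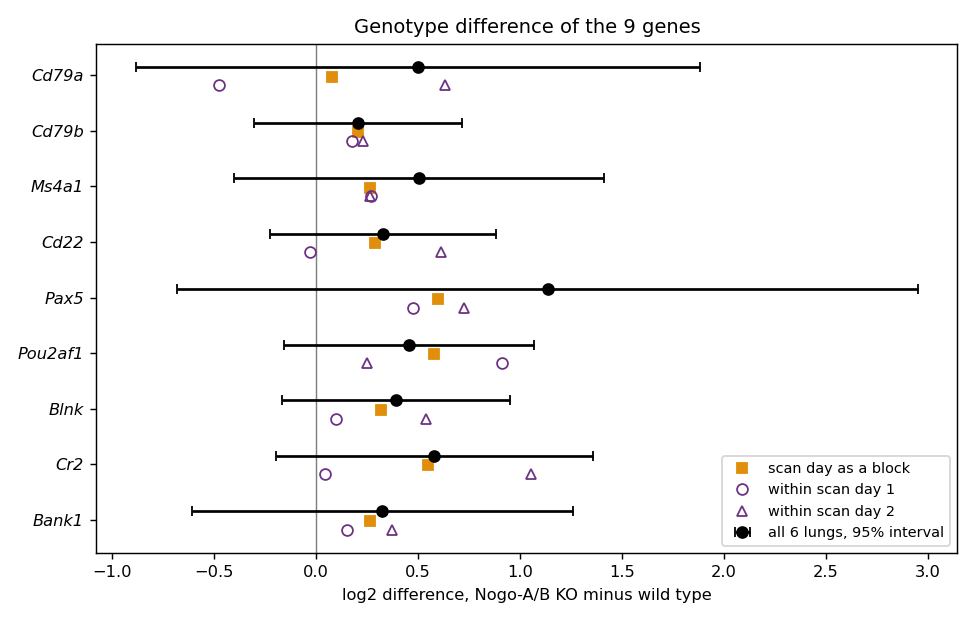
Log2 differences, knockout minus wild type, of the 9 genes: black points with 95% intervals from all 6 lungs, orange squares with a block for scan day, open circles from day 1 alone and open triangles from day 2 alone. All 9 intervals include 0, and within day 1 Cd79a (-0.48) and Cd22 (-0.03) lie below it. The Pax5 probe is one that the array does not assign to the Pax5 mRNA.

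Within both days the knockout was higher for 7 of the 9 genes, the exceptions being Cd79a and Cd22 within day 1, against 20.5% of all genes tested. On each day 1 group was a single array, and the 9 genes share these arrays, so they are not separate observations. All 13 probes of these genes that were well above background on at least 3 arrays gave a positive difference, and 0 reached an unadjusted p under 0.05. Probes of 1 gene read the same RNA and are not separate evidence.

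For Pax5, Cd79a and Ms4a1 the difference between scan days was larger in size than that between genotypes. With genotype in the model, the day 2 minus day 1 difference was -1.61 (SE 0.48) for Pax5, -1.26 (SE 0.34) for Cd79a and -0.72 (SE 0.27) for Ms4a1, with adjusted p of 0.106, 0.0810 and 0.165 in limma. It was 0.00 (SE 0.22) for Cd79b and 0.37 (SE 0.21) for Pou2af1. None of the 9 passed, while 11% of all genes tested did, and 8.73% of all genes tested passed with lower values on day 2. That split turned with the scaling, to 1484 lower and 2164 higher genes under median scaling, against 1767 lower and 453 higher as reported. The median over all genes moved from 0.04 to 0.34 with it. Relative to that median, 8 of the 9 genes were lower on day 2 under both scalings. The count was 7 with quantile normalization, with normexp and on the authors' values, and 6 with the mean over a gene's kept probes. Of all genes, as many lie below the median as above it.

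The 4 genes with 2 usable probes showed how much the probe mattered. For Bank1 the probe nearer the 3′ end differed between days by -0.19 and the other, which crosses a splice junction upstream, by -1.62. This farther probe was well above background on only 3 of 6 arrays. Its processed signal was 88.5, 27.19 and 66.85 in day 1 lungs knockout 1, knockout 11 and wild type 13. In day 2 lungs knockout 12, wild type 11 and wild type 12 it was 12.87, 9.613 and 16.13, so the size of -1.62 is uncertain. For Cr2 the probe nearer the 3′ end gave -0.10 and the farther one -1.15. Cd22 (-0.11 and 0.22) and Ms4a1 (-0.72 and -0.59) did not share that order. Over 6553 genes with such a pair within 200000 bases, the day 2 minus day 1 difference was more negative at the probe farther from the 3′ end in 64.3%, and the 2 differences were a median of -0.19 apart. What differed between the days was not tested.

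**Figure D3:**
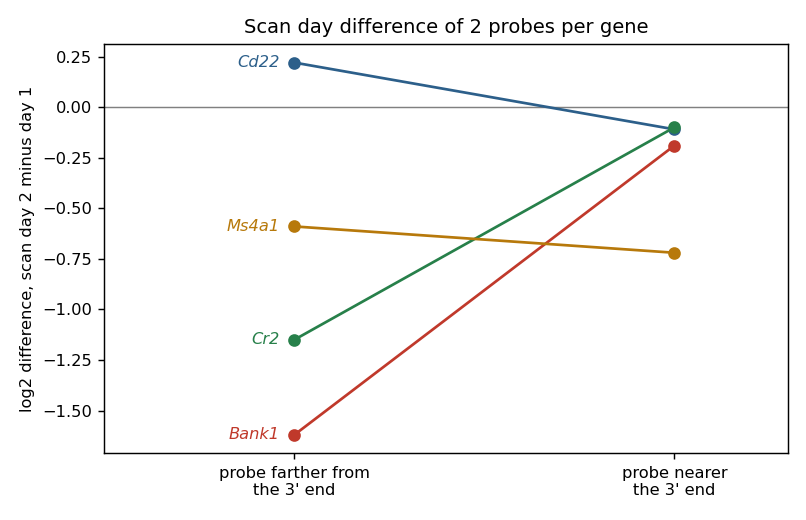
Day 2 minus day 1 log2 difference, genotype in the model, for the probe farther from (left) and nearer to (right) the 3′ end of Bank1, Cd22, Cr2 and Ms4a1; a line joins the 2 probes of a gene. Bank1 (-1.62 against -0.19) and Cr2 (-1.15 against -0.10) slope steeply, while Cd22 and Ms4a1 stay within 0.33 of level. The farther Bank1 probe was well above background on only 3 of 6 arrays.

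Apart from Pou2af1, the genes correlated with each other over the 6 lungs at 0.42 or more. Measured as the median deviation from each gene's own mean over the 6 lungs, they stood at 0.50, -0.08 and 0.12 in knockout lungs 1, 11 and 12, against -0.51, -0.21 and 0.11 in wild-type lungs 11, 12 and 13. Knockout 1 was above the gene's mean for all 9 genes and wild type 11 for none. Knockout 11 was thus below wild type 13, and wild type 13 was level with knockout 12. Knockout 1 and wild type 11 also had the highest and lowest share of probes well above background, 78.0% and 68.9%. Whether the levels of these genes follow that share was not tested. Over the 36 pairs of genes, Pearson's r across the 6 lungs had a median of 0.70 and ranged from -0.27 to 0.99, with 35 pairs above 0. The 8 pairs with Pou2af1 ranged from -0.27 to 0.56 and the other 28 from 0.42 to 0.99, a split noticed after the values were seen. With the mean of each scan day subtracted the median over all pairs was 0.77. These points share 6 libraries and their scan days, so the coefficients are descriptions only.

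Genes whose pattern over the 6 lungs was most like the standardized mean of the 9 were Sncaip (r = 0.994), Mpdu1 (0.989), H2-Oa (0.986), Pla2g2c (0.983), Emc9 (0.981) and Iftap (0.980). H2-Oa encodes a chain of H2-O, a modulator of class II peptide loading that B cells express, and it differed by 0.60 between knockout and wild type, at an adjusted p of 0.9998 in limma. Among the 9 themselves Blnk was closest (r = 0.979) and Pou2af1 farthest (0.357). Each of the 9 is part of that mean, which raises its r, so these values do not compare with those of other genes. Besides the 9, 153 genes exceeded 0.9, out of 20246 genes tested. How many unrelated genes would do so over 6 lungs was not tested. After subtracting scan day means the leading genes were Smco4, Dmbx1, Mlxipl, Igsf10, Sncaip and Pxmp4 (r from 0.993 to 0.999).

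Other B cell genes were counted from lists of surface proteins, transcription factors and signalling proteins. Of 21 measured surface proteins and co-receptors, 14 were higher in the knockout, with a median of 0.11 and 0 at an unadjusted p under 0.05. Cd72, a B cell inhibitory lectin, was named because it had the smallest unadjusted p of the 21. It read -0.61, -0.91 and -0.85 in knockout lungs 1, 11 and 12, against -1.31, -1.01 and -1.27 in wild-type lungs 11, 12 and 13. Its groups did not overlap, where 4% of all genes tested had groups apart, and the difference was 0.40 (SE 0.18, unadjusted p = 0.0623, adjusted p = 0.9998 in limma). The tetraspanin Cd81 differed by 0.33 (SE 0.18) and the Siglec family member Siglecg by 0.48 (SE 0.37). Of 17 transcription factors 12 were higher, with a median of 0.15, or 0.02 with scan day as a block. Ikzf3, Tcf3, Irf4 and Etv6 had differences of 0.38, 0.34, -0.43 and -0.22, and none reached an unadjusted p under 0.05.

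Most genes of receptor signalling had lower means in the knockout. Of 20 measured genes on the list of receptor signalling, 17 were lower in the knockout, with a median of -0.25, and 0 reached an unadjusted p under 0.05. Vav1, a guanine nucleotide exchange factor, differed by -0.49 (SE 0.36), Plcg2, the phospholipase that Blnk recruits, by -0.35 (SE 0.32) and the phosphatase gene Ptprc by -0.45 (SE 0.41). Nfatc1, a calcium-regulated factor, differed by 0.47 (SE 0.39). The list median was 0.33 within day 1 and -0.52 within day 2. Many of these genes are also used by myeloid cells, and all 11 neutrophil markers had lower means in the knockout over the 6 lungs, with a median of -0.89. On day 1 alone 5 of the 11 were higher (median -0.12), and on day 2 alone 0 were (median -1.51). At an unadjusted p under 0.05 were Ltf, Mmp9 and Cd177, with differences of -0.87, -1.77 and -1.13, and none passed the adjusted threshold in limma. The summed level of the 11 markers was 47.3 to 198 times the array's 75th percentile in knockout lungs and 89.9 to 315 in wild-type lungs. By lung the signalling list stood at -0.27, 0.00 and -0.13 in knockout lungs 1, 11 and 12, against 0.42, 0.31 and -0.49 in wild-type lungs 11, 12 and 13. The neutrophil list stood at -0.71, 0.18 and -1.17 in the knockout lungs and 1.18, 0.86 and -0.20 in the wild-type lungs, and its part in the signalling list was not tested.

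Markers of other lymphocytes were read alongside. Of 18 T cell markers, 14 were higher in the knockout (median 0.18). Their summed level was 9.60 to 11.2 in knockout and 9.04 to 10.4 in wild-type lungs. Cd3d, a chain of the T cell receptor complex, was the one marker at an unadjusted p under 0.05, with a difference of 0.49 (SE 0.20, unadjusted p = 0.0440, adjusted p = 0.9998 in limma). Cd3g, Tcf7 and Cd6 differed by 0.40, 0.32 and 0.28. These 4 had groups that did not overlap, as 4% of all genes tested did. Cd3e, Cd8b1, Cd2 and Ms4a4b, named because they were the lower ones, differed by -0.21, -0.38, -0.09 and -0.09. Among 8 natural killer markers 5 were higher (median 0.06), and the median was 0.34 on day 1 alone and -0.28 on day 2 alone. Eomes and Klrd1 differed by 0.31 and 0.24, and Ncr1 and Klrk1 by -0.27 and -0.14. Among 7 markers of plasmacytoid dendritic cells 6 were higher (median 0.28), but the median was 0.12 with the block for scan day and -0.07 on day 2 alone. The membrane protein Bst2 differed by 0.32 (SE 0.21), with 0.67 on day 1 and -0.07 on day 2, and Pacsin1, Cox6a2 and Ccr9 by 0.28, 0.64 and 0.22. Cox6a2 was at 0.69 on day 1 and -0.37 on day 2, and which cells its signal came from was not tested. The summed level of the 9 B cell genes was 8.72 to 13.6 in knockout lungs and 7.95 to 9.08 in wild-type lungs.

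**Figure D4:**
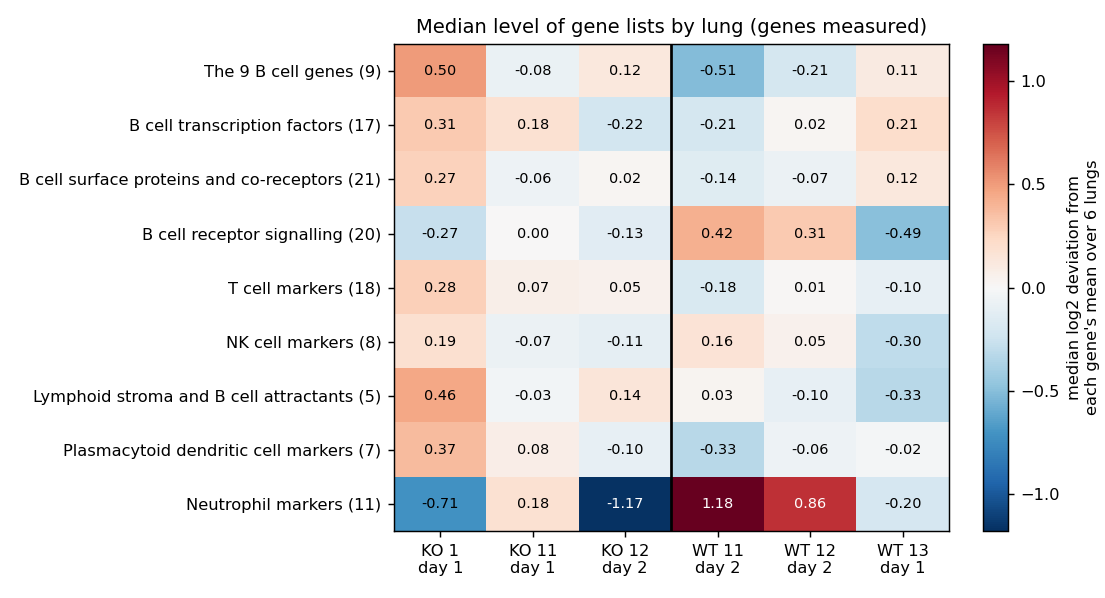
Median log2 deviation from each gene's mean over the 6 lungs, for the 9 B cell genes and 8 other lists (rows, with genes measured) in knockout lungs 1, 11 and 12 (left) and wild-type lungs 11, 12 and 13 (right). The 9 genes stand highest in knockout 1 (0.50) and lowest in wild type 11 (-0.51), and the neutrophil list stands highest in wild type 11 (1.18) and lowest in knockout 12 (-1.17).

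Genes of B cell follicles, germinal centres and plasma cells gave mixed values. Of 5 measured genes of lymphoid stroma and B cell attractants 3 were higher, with Ccl19, a chemokine of T cell zones, at 0.63 (SE 0.26, unadjusted p = 0.0470, adjusted p = 0.9998 in limma). Ccl19 read 2.17, 2.07 and 1.86 in knockout lungs 1, 11 and 12, against 1.68, 1.62 and 0.91 in wild-type lungs 11, 12 and 13. The groups did not overlap, as in 4% of all genes tested, and the difference was 1.21 on day 1 and 0.21 on day 2. Madcam1, an address molecule of venules, differed by -0.47, the lymphotoxin chain Ltb by 0.20 and the B cell survival factor Tnfsf13b by -0.09. Cxcl13, the chemokine that draws B cells into follicles, differed by 0.09 (SE 0.33). Of 10 germinal centre and plasma cell genes 4 were higher, among them Tnfrsf17, a survival receptor of plasma cells, at 0.76 (SE 0.41), the joining chain Jchain at 0.66 (SE 0.46) and Mzb1 at 0.26 (SE 0.24). All 3 were below 0 on day 1 alone (-0.01, -0.53 and -0.12) and above 0 on day 2 alone (1.16, 1.56 and 0.68). For Jchain the genotype by scan day interaction did not pass (adjusted p = 0.3785, unadjusted p = 0.00233 in limma). Xbp1, which many secretory cells use, differed by -0.61 (SE 0.42). The early B cell genes Igll1, Rag1 and Rag2 were not well above background on enough arrays to be tested. Of the other 5 early B cell genes 3 were higher (median 0.02), and Bst1, a stromal and precursor surface enzyme, differed by -0.53 (SE 0.46). Dntt, Il7r and Vpreb1 differed by -0.12, 0.07 and 0.04.

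RefSeq promoter windows (GRCm38.p6), 250 bases before and 50 after a gene's start, were at hand for 7 of the 9 genes, and were searched for the motifs below. The octamer ATGCAAAT, which Pou2af1 recognises together with Oct factors, was found on either strand in 1.74% of 32851 windows and in 1 of the 7, that of Blnk. The palindrome made of TCCC, any 2 bases and GGGA, of the kind bound by the B lineage factor Ebf1, was in 0.904% of windows and in 1 of the 7, that of Cd22. The core GAGGAA, of the kind bound by PU.1, was in 28.3% of windows and in 2 of the 7, Cd79a and Pou2af1. The bases upstream of the start are shown for Blnk (chr19:40994222-40994471, minus strand) and Cd22 (chr7:30879029-30879278, minus strand), 5′ to 3′, with the octamer (in reverse complement) and the palindrome in capitals. A match is a description of these letters and not a sign of binding. No motif overlapped another.
Blnk: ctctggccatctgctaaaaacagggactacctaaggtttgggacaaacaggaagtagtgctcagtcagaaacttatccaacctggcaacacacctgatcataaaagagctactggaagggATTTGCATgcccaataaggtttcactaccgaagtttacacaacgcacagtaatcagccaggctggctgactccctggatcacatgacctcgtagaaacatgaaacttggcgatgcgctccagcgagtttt
Cd22: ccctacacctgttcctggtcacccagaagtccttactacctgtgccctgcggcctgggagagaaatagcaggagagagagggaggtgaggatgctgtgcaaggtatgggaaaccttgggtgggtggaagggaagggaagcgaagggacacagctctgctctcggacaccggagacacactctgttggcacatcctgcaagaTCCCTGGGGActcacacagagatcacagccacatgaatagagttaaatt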

How the data were processed

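Each of 6 lungs was read on a 1-colour array (Agilent design 014868). The deposited intensity is Feature Extraction's processed signal, which per the file headers had background subtraction, detrending and surrogates switched on, made with version 9.5.1.1 and with 9.1 per the submitters' processing notes. The deposited log2 table holds the authors' own values, with medians of 8.088 to 8.090 in all columns. Its ranks followed the median spot signal (Spearman correlation of at least 0.99996 over probes), and its scaling is not stated there. Flagged spots were left out, spots of a probe averaged and 30 of 41174 probes dropped. Genes needed a probe well above background on at least 3 of 6 arrays. RefSeq (GRCm38) named 32688 probes, and 8456 kept the array's name. The genotypes were tested in R 4.3.3 with limma 3.58.1 (two-sided, Benjamini-Hochberg over all genes). The fit was also run on simulated arrays with the means and spreads of these data, whose noise was independent and held no scan days. Genes named are the members, Rtn4, up to 4 genes with the smallest p of each list, and the 6 closest to the members' mean. Cxcl13 and 4 lower T cell markers were added after their values were seen. Some genes that this rule names are not reported here. The members and lists were chosen with earlier results of these data known. Alternatives covered normalization, background, probe filters, scan day, slide and leaving out each array. Protein sequences were not used here.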

Additional observations from a re-analysis of the deposited data

How the results depend on the processing

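None of the 9 genes passed the adjusted threshold under any of the 21 alternatives, and the lowest adjusted p was 0.218, on day 2 alone. Their median difference lay between 0.15 and 0.56 over these alternatives, and between 0.25 and 0.56 when each lung was left out in turn. The sign turned for Cd79a (-0.48) and Cd22 (-0.03) on day 1 alone, and for Bank1 without knockout 1, its leave-one-out range being -0.06 to 0.68. Over all genes the count past the threshold was 0 as reported, and 2 under median scaling, with slide as a random block and under array weights. It was 1 with normexp, on the authors' values and with trended variance. It ranged from 0 to 1 when a lung was left out. All these calls were lower in the knockout. The count between scan days was 2220 as reported and 3648 under median scaling. The numbers 11 and 12 occur in both groups, and their deviations correlated at -0.246 and 0.417. The lungs numbered 11 were scanned on different days and those numbered 12 on the same day. Knockout 12 and wild type 11, of the same day but unlike numbers, correlated at 0.569. These values therefore cannot decide whether the numbers mark pairs. They were not taken as pairs, and with them as a replicate block 0 genes passed and the median was 0.40. The causes were not tested. With normexp, Cd79a, Pax5, Cr2 and Bank1 were at 0.20, 0.67, 0.35 and 0.22. It was run with an offset of 50 added to every signal, which by itself shrinks log2 differences of dim probes. These moves therefore do not measure how far dim signal limits these genes.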
